A study of Mus musculus with 27 samples.

Results

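Coro1a, Lcp1, Was, Wipf1, Arpc1b, Dock2, Laptm5, Ptprc, Arhgdib and Fermt3, 10 genes grouped around the leukocyte actin skeleton, were followed in the desmin-positive stroma of MC38 liver metastases. Laptm5 and Ptprc are leukocyte genes outside the actin machinery itself. The 10 genes are part of the 18855 targets measured. They were taken by name and chosen by measured values of the same samples, namely their difference between CMTM6-knockdown and control metastases and their covariation with Ptprc, each on the log2 scale relative to the median target of a region. These values are therefore a description and carry no test for the 10 genes. MC38 is a mouse colorectal cancer cell line, and CMTM6 is a membrane protein of intracellular recycling that was silenced by shRNA in the injected cancer cells, not in the host's stroma. Both groups were 2-month-old C57BL/6 mice that received MC38 cells through the portal vein, with a nontargeting (NT) shRNA in the cells of the control group. Cancer-associated fibroblasts (CAFs) were profiled on tissue sections with the GeoMx Digital Spatial Profiler, in regions of interest (ROIs), of which 14 lay in metastases of 3 control mice and 13 in those of 3 knockdown mice. Each ROI gave the area that stained for desmin, a filament protein of stellate and other contractile cells, so an ROI is a small piece of tissue that can hold other cells too. The labels tie no ROI to a mouse, so some ROIs share an animal, and any p-value over ROIs given here is too small.

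Leukocytes move, swallow particles and form contacts by rebuilding cortical actin. Signals from surface receptors reach Rac and Cdc42 through exchange factors, and these GTPases switch on nucleation factors of the WASP and WAVE families, which drive the Arp2/3 complex to branch new filaments, while coronins and plastins remodel and bundle them. Many of these proteins come in pairs, with one form largely restricted to blood cells and a close relative made by most cell types, and loss of several of the blood cell forms causes immunodeficiency. Among the 10 genes, Ptprc encodes CD45, the receptor phosphatase that marks nucleated blood cells, and Laptm5 a lysosomal membrane protein of the same lineages. Dock2 is the Rac exchange factor of leukocytes, Arhgdib an inhibitor that holds small GTPases in the cytosol, Was the WASP nucleation factor and Wipf1 its binding partner WIP. Arpc1b is a subunit of the Arp2/3 complex, Coro1a the coronin of leukocytes, Lcp1 the bundling protein L-plastin, and Fermt3 kindlin-3, which activates integrins in blood cells.

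The promoters of Coro1a, Lcp1, Laptm5 and Dock2 are shown because these 4 genes had among the largest differences, and that of Arpc1b for contrast, since its difference was near 0. The sequences are from RefSeq on the GRCm38.p6 build, 250 bases before to 50 after the most upstream annotated start, read 5′ to 3′ on the gene's strand. Capitals mark GAGGAA or its reverse complement TTCCTC, a core bound by the myeloid ETS factor PU.1.
Coro1a (chr7:126704767-126705066, minus strand): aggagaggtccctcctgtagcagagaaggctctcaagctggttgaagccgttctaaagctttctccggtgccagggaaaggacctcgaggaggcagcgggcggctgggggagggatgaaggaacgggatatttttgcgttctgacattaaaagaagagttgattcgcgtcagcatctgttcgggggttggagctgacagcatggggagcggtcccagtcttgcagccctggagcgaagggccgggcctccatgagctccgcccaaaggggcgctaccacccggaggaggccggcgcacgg
Lcp1 (chr14:75130873-75131172, plus strand): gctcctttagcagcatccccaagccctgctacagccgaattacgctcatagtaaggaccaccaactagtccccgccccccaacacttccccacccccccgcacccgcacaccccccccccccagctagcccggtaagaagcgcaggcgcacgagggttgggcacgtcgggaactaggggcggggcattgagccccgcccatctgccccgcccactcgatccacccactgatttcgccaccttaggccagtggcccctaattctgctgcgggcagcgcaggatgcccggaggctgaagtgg
Laptm5 (chr4:130913066-130913365, plus strand): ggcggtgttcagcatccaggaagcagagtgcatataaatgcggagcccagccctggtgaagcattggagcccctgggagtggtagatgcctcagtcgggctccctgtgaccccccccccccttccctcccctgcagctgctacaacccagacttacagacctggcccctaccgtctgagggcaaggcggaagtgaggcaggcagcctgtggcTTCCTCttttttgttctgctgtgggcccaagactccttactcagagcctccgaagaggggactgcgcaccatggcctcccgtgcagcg
Dock2 (chr11:34783856-34784155, minus strand): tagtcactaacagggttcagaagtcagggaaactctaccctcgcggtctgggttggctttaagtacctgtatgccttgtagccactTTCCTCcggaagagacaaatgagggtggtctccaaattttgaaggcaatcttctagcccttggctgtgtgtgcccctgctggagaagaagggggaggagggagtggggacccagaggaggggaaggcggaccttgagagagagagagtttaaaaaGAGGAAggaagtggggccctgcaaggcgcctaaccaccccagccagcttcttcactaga
Arpc1b (chr5:145114006-145114305, plus strand): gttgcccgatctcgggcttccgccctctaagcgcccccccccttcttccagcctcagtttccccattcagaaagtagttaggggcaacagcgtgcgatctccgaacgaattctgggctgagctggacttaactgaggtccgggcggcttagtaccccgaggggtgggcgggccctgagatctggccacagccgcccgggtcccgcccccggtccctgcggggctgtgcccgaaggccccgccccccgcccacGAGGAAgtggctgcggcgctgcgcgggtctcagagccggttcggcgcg
The core stood 1 time in the Laptm5 window, 2 times in that of Dock2 and 1 time in that of Arpc1b. It was not found in the windows of Coro1a and Lcp1 shown here. Over all annotated starts, 7 of the 10 genes had it in at least 1 window (7 of 17 windows), beside 28.3% of the 32851 windows and 31.3% of the 27025 genes of the whole set. TGTGGT, a core of RUNX factors searched on both strands, stood in a window of 4 of the 10 genes (Was, Wipf1, Arhgdib and Fermt3), beside 18.9% of all genes, and the ETS core CCGGAAGT in none of them, beside 4.31%. GAGGAA and CCGGAAGT overlap in their GGAA. These matches are letters in a window and were related to no measurement.

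Control ROIs held 659571 to 3269149 reads and knockdown ROIs 76346 to 2776820. The 75th percentile of the deposited values of an ROI was 70.3 to 72.6 in control ROIs. In knockdown ROIs it was 43.9 to 45.7, except for 56.4 in ROI 26, so each group lay near a value of its own. On the deposited values, the median over all targets of the knockdown minus control difference was -0.66 on the log2 scale, and the part of the scaling in this shift was not tested. For this reason each value is given here as log2(value + 1) minus the median over all targets of its ROI, called the level below, and a change that all targets share cannot be seen. ROI 26 of the knockdown group was the shallowest. It held 9240 targets at 1 read, and its median target had 2 reads, so its levels are coarse. All 10 genes lay above the background limit, which 11317 targets passed. Markers of fibroblasts and stellate cells were high in both groups, with a median over ROIs of their summed reads of 149 per 10000 reads in control and 174 in knockdown, beside 13.0 and 15.4 for the 10 genes together.

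Coro1a showed the largest difference among the 10 genes. Its level was 1.47 in the lowest, 2.03 in the median and 2.40 in the highest control ROI, and 2.26, 2.61 and 2.92 in the knockdown ROIs. The groups overlapped over a short stretch: 11 of 13 knockdown ROIs lay above every control ROI, 10 of 14 control ROIs lay below every knockdown ROI, and all 13 knockdown ROIs were above the control median. The mean level was 0.62 higher in knockdown metastases (standard error 0.11), which is 1.54-fold, and 99.7% of all targets had a smaller difference. Leaving out each ROI in turn gave 0.58 to 0.65. The reads behind these levels numbered 43 to 358 per control ROI and 12 to 472 per knockdown ROI. The SD of its level was 0.31 (n = 14 ROIs) in control and 0.19 (n = 13 ROIs) in knockdown ROIs, while the median SD over the targets above background was 0.27 and 0.36. In pieces of tissue such as these, more cells of a type and more RNA per cell cannot be told apart.

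Lcp1 and Dock2 differed in the same direction. The level of Lcp1, whose product bundles actin filaments in leukocytes, was 2.52 in the lowest, 3.08 in the median and 3.56 in the highest control ROI, and 3.11, 3.54 and 3.94 in the knockdown ROIs. All 13 knockdown ROIs were above the control median and 5 were above every control ROI, with a mean difference of 0.49 (standard error 0.11). For Dock2, the levels were 0.65, 1.16 and 1.70 in control and 1.29, 1.63 and 2.47 in knockdown ROIs. Again all 13 knockdown ROIs exceeded the control median, 6 lay above every control ROI, and the mean difference was 0.52 (standard error 0.13). The 9 reads of Dock2 in ROI 26 were the fewest in any ROI, and without that ROI its difference was 0.49.

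Laptm5 and Ptprc, which are leukocyte genes outside the actin machinery itself, differed by a similar amount. The level of Laptm5 was 2.17 in the lowest, 2.87 in the median and 3.57 in the highest control ROI, and 2.86, 3.35 and 3.89 in the knockdown ROIs, a mean difference of 0.48 (standard error 0.12). Above every control ROI lay 2 knockdown ROIs, while 7 of 14 control ROIs were below every knockdown ROI. Ptprc spread most widely in the control group, from 0.78 through a median of 1.39 to 2.06, an SD of 0.46 (n = 14 ROIs) that exceeded the SD of 94.8% of the targets above background. In the knockdown ROIs it went from 1.25 through 1.94 to 2.42, with 12 of 13 ROIs above the control median, and the mean difference was 0.49 (standard error 0.15).

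**Figure D1:**
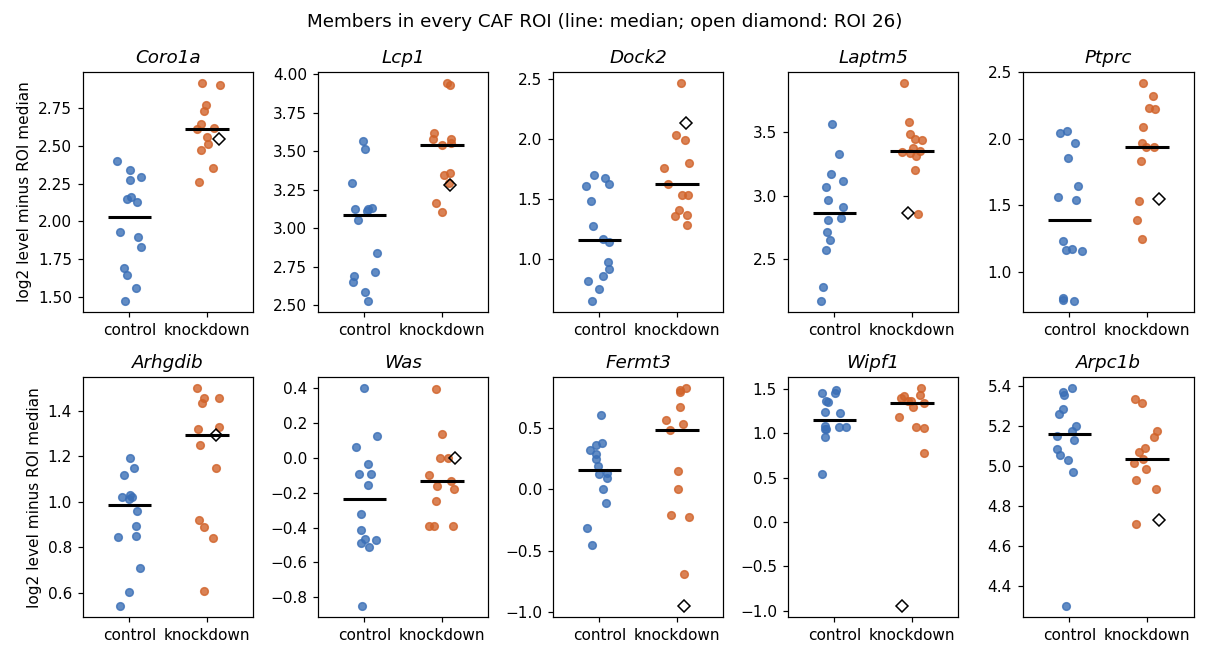
Level of each gene (vertical axis, log2 value minus the median target of the ROI) in the 14 control and 13 knockdown ROIs, 1 point per ROI, with a line at the group median and an open diamond for ROI 26. The points of Coro1a overlap least, between 2.26 and 2.40, whereas those of Arpc1b and Was overlap over most of their range, and the lowest points of Wipf1 and Fermt3 belong to ROI 26.

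The other members differed less. Arhgdib, the GTPase inhibitor of blood cells, had levels from 0.54 through a median of 0.98 to 1.19 in control and from 0.61 through 1.29 to 1.50 in knockdown ROIs. Of 13 knockdown ROIs, 8 lay above every control ROI and 9 above the control median, while the lowest stayed near the bottom of the control range, and the mean difference was 0.26 (standard error 0.10). Was had a mean difference of 0.12 (standard error 0.12), with control levels from -0.85 to 0.40 and knockdown levels from -0.39 to 0.40. Its 2 to 56 reads per ROI allow little more: the spread that counting alone gives (0.31 in control) was close to the SD measured there (0.33).

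Fermt3 and Wipf1 had 1 read each in ROI 26. Fermt3 had levels from -0.45 through 0.16 to 0.61 in control and from -0.95 through 0.48 to 0.82 in knockdown ROIs, with a mean difference of 0.08 (standard error 0.16), and 0.17 without ROI 26. On the reads its difference was 0.35 in edgeR (0.36 without ROI 26) and 0.31 in DESeq2, and it was 0.23 with log2 reads as a covariate, so its size depended on the method. Wipf1 had levels from 0.54 through 1.15 to 1.49 in control and from -0.95 through 1.35 to 1.51 in knockdown ROIs. Its mean difference was -0.07 (standard error 0.17) with ROI 26 and 0.10 without it. On the reads it was 0.12 in edgeR and in DESeq2, and it was 0.17 with log2 reads as a covariate. As its sign depended on the method, no direction is given for Wipf1. In knockdown ROIs the levels of both genes followed the log2 reads of the ROI (r = 0.71 for Fermt3 and 0.81 for Wipf1, n = 13 ROIs). Beyond the fit with that covariate, the part of depth in their differences was not tested.

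Arpc1b, with 55 to 2230 reads per ROI, had a small difference of the opposite sign. Its levels ran from 4.30 through 5.16 to 5.39 in control and from 4.71 through 5.04 to 5.34 in knockdown ROIs. Only 3 of 13 knockdown ROIs exceeded the control median, and the mean difference was -0.09 (standard error 0.10), which is within the spread of the ROIs.

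Relative to the ROI median, 8 of the 10 genes had a difference above 0, beside 37.3% of all targets. The median difference was 0.37 over the 10 genes and -0.05 over all targets. On the deposited values, without centring, the median over all targets was -0.66 and 7 of the 10 changed sign (Lcp1 -0.11, Dock2 -0.08, Laptm5 -0.13, Ptprc -0.12, Arhgdib -0.34, Was -0.48 and Fermt3 -0.53), Coro1a stayed at 0.02, and 8 of the 10 lay above the median of all targets. Under limma with Benjamini-Hochberg adjustment over all targets, Coro1a alone of the 10 passed an adjusted p of 0.05, beside 0.117% of all targets in either direction, and since this contrast chose the genes nothing is read from that count. Without ROI 26 the count was 3 (Coro1a, Lcp1 and Laptm5, beside 0.297% of all targets), as it was with scaling to the 75th percentile (0.159%) and with log2 reads as a covariate (0.292%). edgeR's quasi-likelihood test on the reads gave 4 (these and Dock2, beside 0.679%), as did DESeq2 (0.705%). On the deposited values 5 of the 10 were called, all lower, beside 94% of all targets. No target of the 18855 had groups that did not overlap.

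The relatives of these genes provided a comparison that the choice of members did not use, though the lists were chosen with earlier results known. Of 21 relatives measured, 17 were above background. None of the 21 passed the test in either direction in limma (adjusted p over all targets) or in edgeR. In limma 1 was higher at an unadjusted p under 0.05, beside 3.16% of all targets higher and 6.73% lower. The median difference of the 21 was -0.08, beside -0.05 over all targets. As above, ROIs that share a mouse make these p-values too small. Coro1b and Coro1c, the coronins of most cell types, had differences of 0.07 (standard error 0.09) and -0.05 (standard error 0.10). Among the further coronins, Coro2a had 0.12, Coro2b -0.11, Coro7 0.11 and Coro6, at background, -0.18. On the deposited values, 20 of the 21 were lower, with the shift of all targets.

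Subtracting a relative from its member within each ROI removes the scaling of the ROI, except for the 1 added before the log. The level of Coro1a minus that of Coro1b ran from -2.27 through a median of -1.45 to -0.82 in control and from -1.34 through -0.88 to -0.43 in knockdown ROIs. The groups overlapped, with 6 of 13 knockdown ROIs above every control ROI, and the difference between groups was 0.55 (standard error 0.12). Against Coro1c it was 0.67 (standard error 0.15). These numbers share the member's values that chose it, and are a description.

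The same subtraction was made for the other pairs. For Lcp1 minus Pls3, the plastin of many solid tissues, the difference between groups was 0.59 (standard error 0.15), and Pls3 itself had -0.09. Dock2 stood off from Dock1 by 0.56 (standard error 0.21) and from Dock5 by 0.71 (standard error 0.22), which had -0.03 and -0.19 themselves. The highest knockdown value of Dock2 minus Dock5 (3.08, beside a median of 1.20) was that of ROI 26, with 9 reads of Dock2. The control median was 0.45, and the pair was not computed without ROI 26. Laptm5 minus Laptm4a gave 0.41 (standard error 0.10) and minus Laptm4b 0.48 (standard error 0.18), and their own differences were 0.06 and -0.01. Ptprc minus the receptor phosphatases Ptpra and Ptprj gave 0.47 (standard error 0.23) and 0.39 (standard error 0.15), where Ptpra had 0.01 and Ptprj 0.09. Arhgdib stood off from Arhgdia, its relative of most cells (-0.08), by 0.34 (standard error 0.15), and from Arhgdig, at background (-0.14), by 0.40.

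Smaller values were seen for most pairs of the branching machinery and the kindlins. Arpc1b minus Arpc1a, the 2 alternative forms of one Arp2/3 subunit, differed between groups by 0.07 (standard error 0.09), with Arpc1a itself at -0.17. Wipf1 minus Wipf2 gave 0.11 (standard error 0.16) and minus Wipf3, at background, 0.17 (standard error 0.26), their own differences being -0.18 and -0.24. For Was minus Wasl, which encodes N-WASP, the value was 0.44 (standard error 0.23), where Wasl had -0.31. The highest knockdown value of this pair (0.95, beside a median of -1.60) was that of ROI 26, with 2 reads of Was. The control median was -1.79, and the pair was not computed without ROI 26. Fermt3 minus Fermt2, the kindlin of solid tissues (-0.12), gave 0.19 (standard error 0.21), and minus Fermt1, a target at background (0.32), -0.24 (standard error 0.21).

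**Figure D2:**
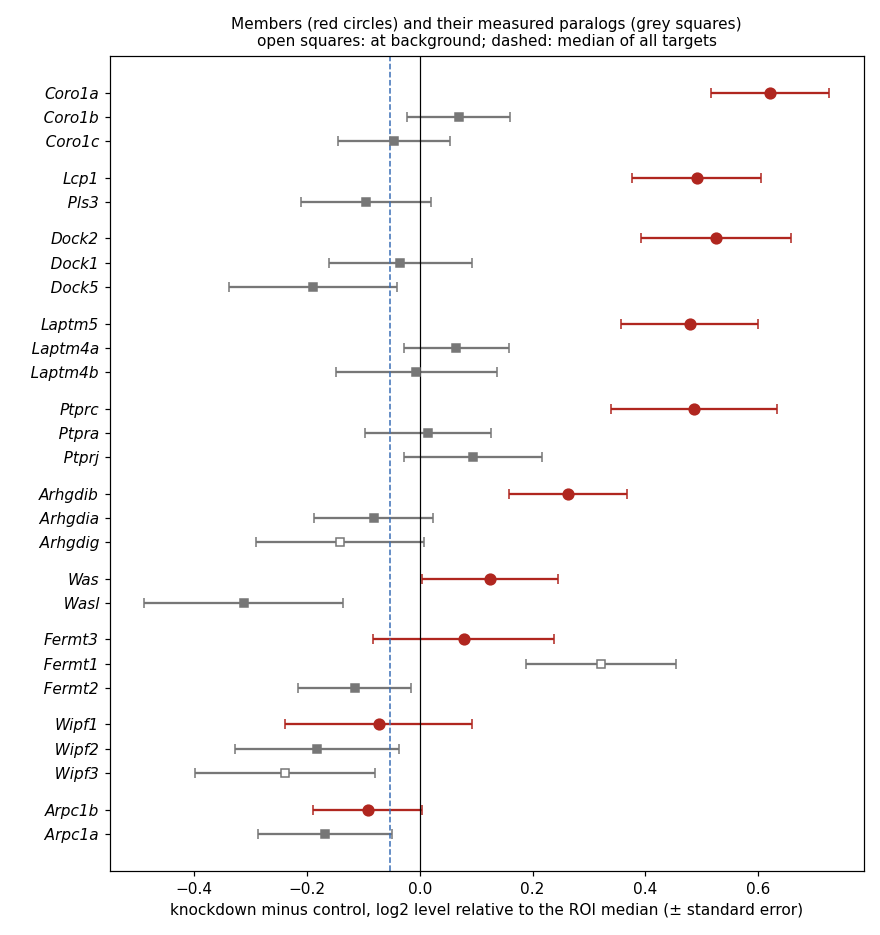
Difference between knockdown and control ROIs (horizontal axis, log2 level relative to the ROI median, with its standard error over 14 and 13 ROIs) for the 10 genes (red circles) and 17 of their relatives (grey squares, open where the target was at background). Coro1a, Lcp1, Dock2, Laptm5 and Ptprc lie between 0.48 and 0.62, while their relatives lie between -0.19 and 0.09; on the deposited values without centring, 7 of the 10 members changed sign, with all targets shifted by -0.66.

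Across ROIs of one group, most of the other 9 genes covaried positively with Ptprc. The correlations are over 14 control and 13 knockdown ROIs that share animals, carry no p, and were part of the rule that chose the genes. Laptm5 followed Ptprc most closely in control ROIs, with Pearson r = 0.79 (Spearman 0.82), and in knockdown ROIs r was 0.74 (Spearman 0.84). Without the 2 ROIs farthest from the median of Ptprc (ROI 8 and ROI 10 in control, ROI 20 and ROI 24 in knockdown) r was 0.73 and 0.69. For Coro1a, r was 0.58 (Spearman 0.55) in control and 0.66 (Spearman 0.71) in knockdown ROIs, and 0.47 and 0.61 without those ROIs. Lcp1 had 0.58 (Spearman 0.62) and 0.59 (Spearman 0.57), and 0.55 and 0.49 without them.

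Dock2 had r = 0.68 (Spearman 0.64) with Ptprc in control and 0.51 (Spearman 0.63) in knockdown ROIs, and 0.55 and 0.39 without the farthest ROIs. ROI 26 lay off the line of the other knockdown ROIs, and without it r was 0.68. Fermt3 had 0.51 (Spearman 0.51) and 0.77 (Spearman 0.79), then 0.46 and 0.81. Each of these 5 genes had r of about 0.51 or more with Ptprc in both groups, a value that the rule choosing them used. Over all other targets above background, r had a median of -0.07 in control and -0.03 in knockdown ROIs and a 95th percentile of 0.52 in each. Fermt3 in control and Dock2 in knockdown ROIs lay just below that percentile.

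The remaining genes followed Ptprc less. Arhgdib had r = 0.52 (Spearman 0.51) in control and 0.28 (Spearman 0.32) in knockdown ROIs, and 0.50 and 0.12 without the farthest ROIs. Was had 0.43 (Spearman 0.41) and 0.33 (Spearman 0.23), then 0.47 and 0.28, on few reads. Wipf1 had 0.28 (Spearman 0.22) and 0.43 (Spearman 0.42), then 0.15 and 0.51. Arpc1b did not go up with Ptprc: r was -0.02 (Spearman -0.19) in control and -0.54 (Spearman -0.65) in knockdown ROIs, -0.12 and -0.28 without the farthest ROIs, and -0.80 in knockdown without ROI 26. The median over the 9 genes was 0.52 in control and 0.51 in knockdown ROIs.

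**Figure D3:**
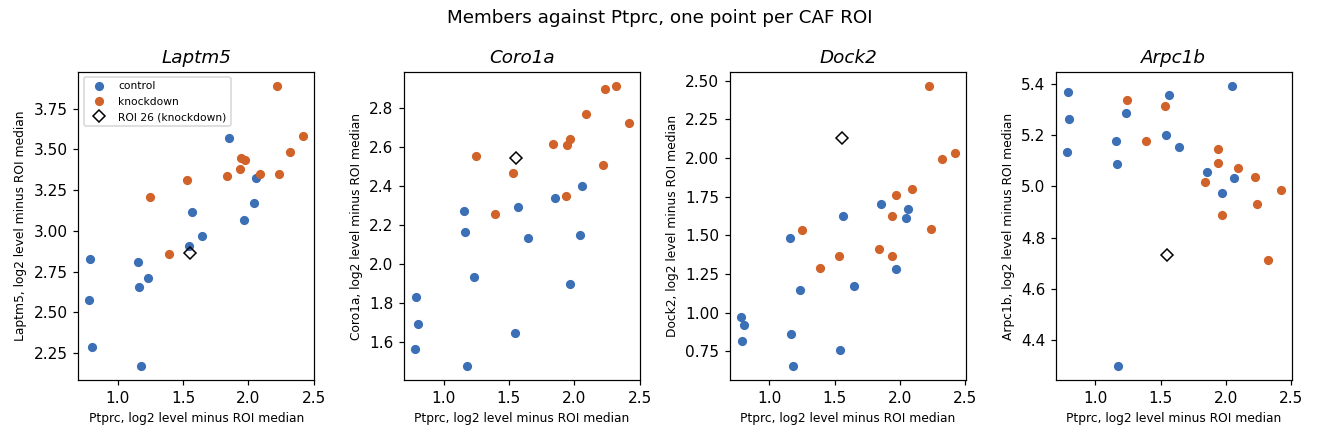
Level of Laptm5, Coro1a, Dock2 and Arpc1b (vertical axes) against the level of Ptprc (horizontal axis), both as log2 value minus the ROI median, 1 point per ROI, control in blue and knockdown in orange with ROI 26 as an open diamond. Laptm5 went up with Ptprc in both groups (r = 0.79 and 0.74), with the groups on 1 band, whereas Arpc1b had r = -0.02 in control and -0.54 in knockdown ROIs.

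Ptprc was also subtracted within each ROI, which removes the scaling of the ROI except for the 1 added before the log. The result for a gene is its difference between groups minus that of Ptprc (0.49). The level of Lcp1 minus Ptprc differed by 0.00 (standard error 0.13), that of Laptm5 minus Ptprc by -0.01 (standard error 0.10), and that of Dock2 minus Ptprc by 0.04 (standard error 0.14). Coro1a minus Ptprc ran from -0.07 through 0.59 to 1.11 in control and from 0.29 through 0.67 to 1.31 in knockdown ROIs, with a difference of 0.13 (standard error 0.13). The difference of Coro1a beyond that of Ptprc was thus about as large as its standard error. The genes with smaller differences between groups had negative values, which the subtraction itself gives: Arhgdib -0.22 (standard error 0.15), Was -0.36 (standard error 0.16), Fermt3 -0.41 (standard error 0.15), Wipf1 -0.56 (standard error 0.20) and Arpc1b -0.58 (standard error 0.20).

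Correlations among the 10 genes are a description too, since covariation with Ptprc was part of the rule that chose them. Other pairs of targets were not computed for comparison. Of 45 pairs, 25 had r above 0.5 in control and 11 in knockdown ROIs (14 without ROI 26), and the median r was 0.51 and 0.33. Below 0 were 2 pairs in control and 12 in knockdown ROIs (9 without ROI 26). In control ROIs, the 6 pairs among Coro1a, Lcp1, Dock2 and Laptm5 had r of 0.76 to 0.84, a range that Laptm5 with Ptprc (0.79) shared. The r was 0.84 between Coro1a and Dock2, 0.80 between Coro1a and Lcp1 and 0.76 between Coro1a and Laptm5. In knockdown ROIs these 3 values were 0.34, 0.36 and 0.36 (0.41, 0.35 and 0.37 without ROI 26). The SD of Coro1a was also smaller there, as given above (0.19, beside 0.31 in control). The spread that counting alone gives was 0.17 in knockdown and 0.14 in control ROIs. The difference between groups in these correlations, and the part of counting in it, was not tested. The highest r among knockdown ROIs was that of Ptprc with Fermt3 (0.77, and 0.78 without ROI 26). Without ROI 26 it was that of Dock2 with Laptm5, which went from 0.48 to 0.84.

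**Figure D4:**
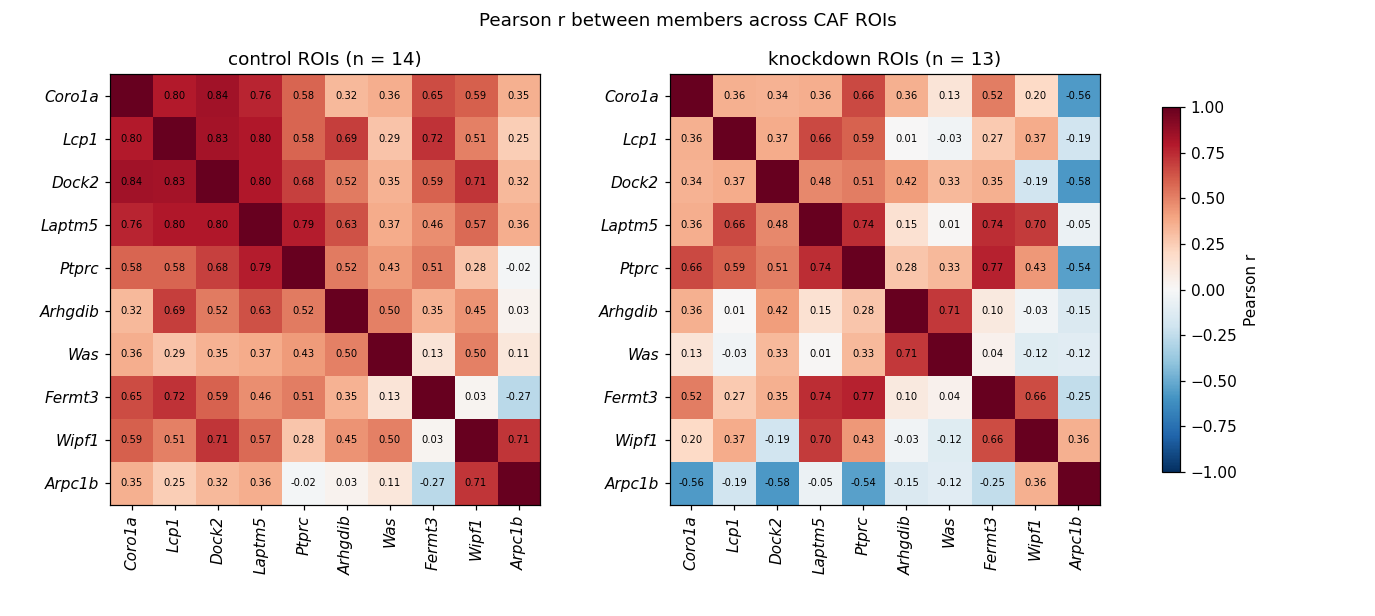
Pearson r between the 10 genes across the 14 control ROIs (left) and the 13 knockdown ROIs (right), coloured from -1 (blue) to 1 (red). The block of Coro1a, Lcp1, Dock2 and Laptm5 is at 0.76 to 0.84 in the left panel and at 0.34 to 0.66 in the right one (Dock2 with Laptm5 is at 0.84 without ROI 26), and Arpc1b is the row with most values near or below 0 in knockdown ROIs.

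Over the whole panel, the likeness of every target to Coro1a was ranked. By the correlation pooled within groups over all 27 ROIs, among 11316 targets above background, the first 8 were AB124611 (r = 0.77), Cybb, the catalytic subunit of the phagocyte oxidase (0.74), the kinase Pim1 (0.72), Ptpn6, the phosphatase SHP-1 of blood cells (0.72), the receptor Slamf8 (0.72), the chemokine Ccl2 (0.72), the protease Ctsc (0.72) and the interferon-induced chemokine Cxcl9 (0.72). In knockdown ROIs alone, r with Coro1a was 0.76 for Ptpn6 and 0.40 for Ctsc. Among the members, Lcp1 came at rank 40, Dock2 at 48, Laptm5 at 52, Ptprc at 100 and Fermt3 at 267. Arhgdib, Was, Wipf1 and Arpc1b followed at 901, 1005, 1073 and 3856. Without ROI 26, Wipf1 went to rank 271 (r = 0.52, beside 0.29 with it), and of the first 8 targets Pim1, Ptpn6, Slamf8 and Cxcl9 came at ranks 11, 9, 10 and 14.

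The wider pathway was read from 6 lists with 107 genes, all measured. In limma with adjustment over all targets, 0 of the 107 passed in either direction, beside 0.117% of all targets. At an unadjusted p under 0.05, 22 were higher and 3 lower, beside 3.16% and 6.73% of all targets. Their median difference was 0.05, and 71 of the 107 were above 0. edgeR called 11 of the 107, all higher (0.594% of all targets were called higher by it).

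The smallest p of these lists belonged to Ptpn6, the SHP-1 phosphatase of blood cells. It had a difference of 0.49 (standard error 0.11, limma adjusted p = 0.051), and passed in edgeR (adjusted p = 0.0035), tests in which ROIs that share a mouse count as independent. It also passed in limma without ROI 26 (adjusted p = 0.011), as did the kinases Syk and Btk, which are named here after their values were seen. In the list of Src and Syk family signalling, 20 genes with a median difference of 0.15, Ptpn22 (0.47), Inpp5d (0.52) and Lcp2 (0.35) followed in order of p. In that list edgeR called Ptpn6, Ptpn22, Syk and Btk.

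Among 28 genes of actin filament turnover, with a median of 0.04, edgeR called 4, and none passed in limma. The differences in brackets are those in limma. The 4 included Gmfg, the glia maturation factor of blood cells that takes filament branches apart (0.53, standard error 0.14). Wdr1, a partner of cofilin (0.27, standard error 0.09), was another. The others were the myosins Myo1g (0.49, standard error 0.13) and Myo1f (0.37, standard error 0.17, limma adjusted p = 0.48). Myo1f, outside the rule for named genes, had 0.57 in edgeR. Tmsb4x, which binds actin monomers, had 0.44 (standard error 0.12, limma adjusted p = 0.17). In the 15 genes of integrin activation, with a median of 0.06, edgeR called Itgal (0.63) and Itgb2 (0.50), the chains of the integrin LFA-1. In limma, Itgal had 0.67 (standard error 0.17, adjusted p = 0.10) and Itgb2 0.37 (standard error 0.17, adjusted p = 0.48). Itga4 (0.34 in limma) and Apbb1ip (0.21) passed in neither.

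The 9 other genes of the Arp2/3 complex, alternative forms such as Arpc1a among them, had a median of -0.02. None of them passed in limma or edgeR, nor did any reach an unadjusted p under 0.05 in limma. Arpc5 had 0.10 (standard error 0.07), Actr2 -0.16 (standard error 0.13) and Arpc5l -0.11 (standard error 0.11). In the 11 genes of the WAVE complex, with a median of 0.02, none passed in limma or edgeR and 3 had an unadjusted p under 0.05 in limma: Cyfip2 (0.45, standard error 0.17), Nckap1l, the form of blood cells (0.27, standard error 0.12), and Abi2 (-0.33, standard error 0.12). Wasf3, at background, had -0.27.

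Some markers of cell types differed in the same direction as these genes, and their part in the differences was not tested. Of 16 macrophage markers none passed in limma, and edgeR called Lyz2 (0.71, adjusted p = 0.00031), beside 0.594% of all targets called higher. At an unadjusted p under 0.05 in limma 6 were higher, beside 3.16% of all targets, and the median difference was 0.11. A difference above 0 was found for 11 of the 16, beside 37.3% of all targets. The summed reads of all 16 were 9.32 to 24.5 per 10000 in control ROIs, against 13.1 to 31.4 in the knockdown group. The complement genes C1qb (0.51), C1qc (0.49) and C1qa (0.46) and Lyz2 (0.51) had the smallest p, with limma adjusted p of 0.26, 0.35, 0.39 and 0.16. Of 18 T cell markers none passed in limma and edgeR called 1 (Trac), beside the same 0.594%. At an unadjusted p under 0.05 in limma 6 were higher, beside the same 3.16%. The median was 0.23, and the summed reads were 3.60 to 5.99 and 3.44 to 7.73 per 10000. Trac, the constant region of the T cell receptor, had 0.63 in limma (adjusted p = 0.068) and 0.69 in edgeR (adjusted p = 0.0074).

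Of 11 NK and cytotoxic markers, Nkg7, a protein of cytotoxic granules, passed in limma (0.71, standard error 0.12, adjusted p = 0.0041) and edgeR. Of all targets, limma called 0.111% higher and edgeR 0.594%. At an unadjusted p under 0.05 in limma, 5 of the 11 were higher, beside 3.16% of all targets, and the median was 0.38. The summed reads of the 11 were 1.17 to 3.38 per 10000 in control ROIs, against 1.47 to 5.22 in the knockdown group. None passed in limma or edgeR among 12 markers of B and plasma cells (median 0.08), 13 of neutrophils (0.09), 11 of dendritic cells (-0.05), 6 of platelets (0.01), 12 of fibroblasts and stellate cells (0.05), 12 of endothelial cells (-0.12) and 8 of tumour epithelium (-0.13). Only 3 of the B and plasma cell markers, 4 of the neutrophil markers, 5 of the dendritic cell markers, 1 of the platelet markers and 2 of the tumour epithelium markers were above background. Of the 18 T cell markers, 10 were above it, as were 11 of the 16 macrophage markers and 8 of the 11 NK and cytotoxic markers. Of 10 hepatocyte markers 2 passed in limma, both higher (Fga and Apoa1), beside 0.111% of all targets called higher. In edgeR 7 passed, all higher, beside 0.594%, and the median was 0.94. All 7 genes of MHC class II presentation passed and were higher, beside 0.111% of all targets called higher, with a median of 1.09 and summed reads of 3.32 to 21.6 per 10000 in control ROIs, against 13.5 to 34.0 in the knockdown group. The list of MHC class II genes is known from earlier results on these ROIs and is not independent evidence.

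Which of these lists the 10 genes followed across ROIs differed between genes. In control ROIs the mean level of the macrophage markers above background had r = 0.90 with Laptm5 (Spearman 0.90), 0.79 with Lcp1 (Spearman 0.82), 0.77 with Dock2 (Spearman 0.83) and 0.66 with Coro1a (Spearman 0.64). In knockdown ROIs the same markers had r = 0.64 with Laptm5 (Spearman 0.55), 0.50 with Dock2 (Spearman 0.038), 0.22 with Lcp1 (Spearman 0.093) and -0.19 with Coro1a (Spearman -0.27). The NK and cytotoxic markers had r = 0.49 (Spearman 0.40) with Coro1a in control and 0.79 (Spearman 0.80) in knockdown ROIs, and 0.80 and 0.75 with Ptprc (Spearman 0.81 and 0.79). For the T cell markers, r with Coro1a was 0.31 and 0.61 (Spearman 0.23 and 0.64). MHC class II genes had r = 0.73 and 0.52 with Coro1a (Spearman 0.73 and 0.59). Arpc1b had -0.58 and -0.42 with the T cell markers (Spearman -0.60 and -0.31), the latter being -0.63 without ROI 26. These are descriptions over 14 and 13 ROIs with no test of a difference between groups, and depth and animals are shared by all values of an ROI.

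**Figure D5:**
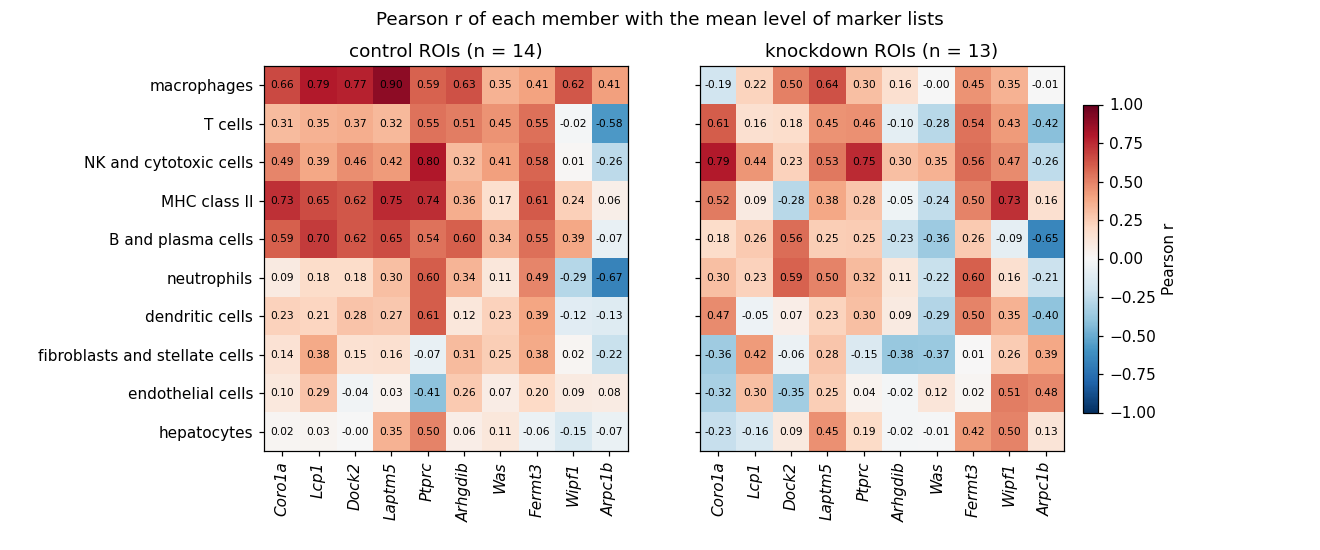
Pearson r of each of the 10 genes (columns) with the mean level of marker lists (rows), across the 14 control ROIs (left) and the 13 knockdown ROIs (right), coloured from -1 (blue) to 1 (red). In control ROIs the row of macrophage markers holds the highest values for Laptm5 (0.90), Lcp1 (0.79) and Dock2 (0.77), and in knockdown ROIs the highest value for Coro1a is that with NK and cytotoxic markers (0.79).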

How the data were processed

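The sheet analysed here holds signal values of 18855 targets in 27 CAF ROIs (14 control, 13 knockdown), deposited by the authors after tag counting and analysis in the GeoMx DSP Analysis Suite. Not given in the sources used here were its version, the normalization and any filter. Columns were matched to samples by ROI number, and groups came from the labels. Within each ROI the values were whole multiples of the worth of 1 read: 99.98% to 99.99% of values came out whole within 0.001 reads, which gave back the reads. Duplicates are not reported, so a read may not be 1 molecule.

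Levels were log2(value + 1) minus the median of the ROI, so that fold changes of low targets are understated. Groups were compared with limma 3.58.1 (trend, two-sided) over all 18855 targets, with Benjamini-Hochberg adjusted p under 0.05. The sources name a Student's t test for comparing 2 groups, and it was run as an alternative. Others were no centring, scaling to the 75th percentile, pseudocounts of 0.1 and 5, targets above background only, the recovered reads with edgeR 4.0.16 (quasi-likelihood test, TMM factors) or with DESeq2 1.42.0, and fits without each ROI. On these reads edgeR called 128 of the 18855 targets. The log2 reads as a covariate and edgeR without ROI 26 were chosen after seeing the data.

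Background was the 95th percentile of the mean log2 value (4.12) over 1067 targets of olfactory, vomeronasal, taste, trace amine, keratin-associated and beta-defensin families. Named were all 10 members, their relatives, at most 4 genes of each list with the smallest p in limma, and the 8 targets above background that followed Coro1a best. The members and lists were chosen with earlier results of these data known. All 10 members were matched by symbol to RefSeq promoters, and Pls1 was not analysed here. The result of 1 pathway list is not reported here on its own. Scripts were tested on simulated reads. R 4.3.3, Python 3.11.15 and SciPy 1.17.1 were used.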

Additional observations from a re-analysis of the deposited data

How the results depend on the processing

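Of the 10 members, 1 (Coro1a) passed the test. The count was 5, all lower, on the deposited values with no centring, 3 with the 75th percentile, without ROI 26 and with log2 reads as covariate, 4 with edgeR (with and without ROI 26) and DESeq2, and 1 with the other settings. Leaving out each ROI gave 1 to 3. It was 2 without control ROI 4 or knockdown ROI 20, and 3 without control ROI 13 or knockdown ROI 26. Among the 107 pathway genes, 0 passed, and 89 (all lower) with no centring, 1 with the 75th percentile, a pseudocount of 0.1 or targets above background only, 11 with edgeR, 13 with DESeq2, 3 without ROI 26, 9 with edgeR without ROI 26 and 2 with the covariate. Leaving out each ROI gave 0 to 3. It was 1 without control ROI 4, 8 or 10, 2 without control ROI 13 or knockdown ROI 20, and 3 without ROI 26. Of the 21 relatives, 20 were called with no centring and 0 elsewhere. All targets shifted with no centring by -0.66, and the signs of 7 members turned: Lcp1 -0.11, Dock2 -0.079, Laptm5 -0.13, Ptprc -0.12, Arhgdib -0.34, Was -0.48 and Fermt3 -0.53. Wipf1 turned from -0.07 to 0.12 in edgeR and DESeq2, 0.10 without ROI 26, 0.14 in edgeR without ROI 26 and 0.17 with the covariate. The cause of these changes was not tested, except that ROI 26 holds 1 read of Wipf1. The median r with Ptprc was 0.68 in knockdown ROIs with no centring, and otherwise 0.43 to 0.63, and 0.47 to 0.62 in control. No paired analysis was possible because the groups share no replicate number. Depth limits Was, Wipf1 and Fermt3 most.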
